A study of Mus musculus with 6 samples.

Results

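The transcription factors described here carry the time signal of the circadian clock to its target genes. They are *Dbp*, *Tef*, *Hlf*, *Nfil3*, *Bhlhe40*, *Bhlhe41*, *Rora*, *Klf15* and *Klf9*, and they were found by gene name among the probes of an Agilent mouse expression array. These 9 of the 36163 distinct names in the array's gene name column had 11 of the 55681 probes other than controls, 2 each for *Dbp* and *Bhlhe41* and 1 for each other gene. Hearts of male C57BL/6 mice were compared after 4 months on a high fat diet (HFD, 60% of kcal from fat) or on a standard chow (normal diet, ND), with feeding begun at 4 weeks of age. The study asked which genes differ in the heart under an overload of lipid. There were 3 hearts in each group, and the RNA of each was read in 1 colour (Cy3) on an array of its own. No transgene is named for these mice. The samples are labelled as heart tissue, and which parts of the heart they held is not stated. The cells were not separated, so fewer cells of a type and less RNA per cell cannot be told apart. The animals lived under alternating light and dark of equal length, and the clock time at which hearts were taken is not given in the sources used here.

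In the circadian clock, the activators CLOCK and BMAL1 (the product of *Arntl*) drive genes through a DNA element called the E-box, and the period and cryptochrome proteins they induce then hold them back. *Dbp*, *Tef* and *Hlf* encode activators with a basic leucine zipper of the PAR type, which bind the D-box, and *Nfil3* encodes a repressor that competes for the same element. *Bhlhe40* and *Bhlhe41* (also called Dec1 and Dec2) encode repressors that bind E-boxes, *Rora* encodes a nuclear receptor that activates *Arntl*, and *Klf15* and *Klf9* encode zinc finger factors that respond to glucocorticoids. *Klf15* is known in the heart for its control of amino acid breakdown and of the potassium channel subunit gene *Kcnip2*.

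The DNA before a gene shows which clock elements lie close to its start. For 8 of the 9 genes RefSeq promoter windows were at hand (GRCm38.p6), 9 windows in all because *Tef* has 2 starts. Each runs from 250 bases before the start to 30 bases after it. An E-box, searched as CACGTG, which reads the same on both strands, was found in 4 of the 9 windows, those of *Tef* (both), *Bhlhe41* and *Klf15*. Of all 32851 promoter windows of this length, 6.79% held one. A D-box was searched on both strands as TTACATAA, TTACGTAA, TTATATAA and TTATGTAA, the last being the reverse complement of the first. It was found in 0 member windows and in 1.53% of all windows. The RORE, the element bound by the product of *Rora*, was also found in 0 member windows, against 0.359% of all, so that no 2 motifs overlapped in these windows. A missing match says only that these letters are not in the window, and a match is not evidence of binding.

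The windows of the 3 PAR factors are shown because their transcripts lay lower in HFD-fed hearts, and those of *Bhlhe41* and *Klf15* because they are the other windows with an E-box. They are printed 5′ to 3′ on the strand of the gene, with E-boxes in capitals. They lie at chr7:45704997-45705276 (+) for *Dbp*, at chr15:81802423-81802702 (+) and chr15:81811164-81811443 (+) for *Tef*, and at chr11:90390888-90391167 (-) for *Hlf*. Those of *Bhlhe41* and *Klf15* lie at chr6:145865391-145865670 (-) and chr6:90462326-90462605 (+).
Dbp: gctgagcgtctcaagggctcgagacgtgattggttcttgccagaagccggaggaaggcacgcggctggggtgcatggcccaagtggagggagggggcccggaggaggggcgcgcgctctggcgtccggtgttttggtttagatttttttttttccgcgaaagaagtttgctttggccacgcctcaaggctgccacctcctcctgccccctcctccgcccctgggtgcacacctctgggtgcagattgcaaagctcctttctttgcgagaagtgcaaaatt
Tef, first start: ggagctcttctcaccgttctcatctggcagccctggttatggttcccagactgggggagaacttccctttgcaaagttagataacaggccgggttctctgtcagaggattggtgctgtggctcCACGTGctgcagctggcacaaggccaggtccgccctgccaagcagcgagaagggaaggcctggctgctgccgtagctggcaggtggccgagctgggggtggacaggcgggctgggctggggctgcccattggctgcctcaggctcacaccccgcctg
Tef, second start: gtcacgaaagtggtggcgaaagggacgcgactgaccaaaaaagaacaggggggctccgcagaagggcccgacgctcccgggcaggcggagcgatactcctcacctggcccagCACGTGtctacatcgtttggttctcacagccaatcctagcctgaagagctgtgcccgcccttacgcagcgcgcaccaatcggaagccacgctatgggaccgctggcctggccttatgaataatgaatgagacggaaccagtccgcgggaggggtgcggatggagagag
Hlf: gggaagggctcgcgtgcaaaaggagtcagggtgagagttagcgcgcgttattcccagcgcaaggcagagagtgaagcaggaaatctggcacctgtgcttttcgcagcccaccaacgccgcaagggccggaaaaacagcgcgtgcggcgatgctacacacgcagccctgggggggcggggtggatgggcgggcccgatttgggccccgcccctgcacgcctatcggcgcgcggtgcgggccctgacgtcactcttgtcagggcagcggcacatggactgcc
Bhlhe41: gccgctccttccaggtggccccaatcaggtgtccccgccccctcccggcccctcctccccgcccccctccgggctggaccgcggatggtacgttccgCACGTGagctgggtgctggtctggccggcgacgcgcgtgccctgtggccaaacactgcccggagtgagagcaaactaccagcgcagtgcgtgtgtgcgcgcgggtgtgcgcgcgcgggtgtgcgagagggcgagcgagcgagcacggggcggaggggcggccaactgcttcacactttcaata
Klf15: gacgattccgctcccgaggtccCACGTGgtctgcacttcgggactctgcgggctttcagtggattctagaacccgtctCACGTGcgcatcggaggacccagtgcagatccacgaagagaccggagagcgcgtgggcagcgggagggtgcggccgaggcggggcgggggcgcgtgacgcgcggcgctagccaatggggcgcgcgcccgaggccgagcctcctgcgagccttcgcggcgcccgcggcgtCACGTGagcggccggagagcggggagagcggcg
The E-box begins 127 bases before the first *Tef* start, 138 before the second and 153 before that of *Bhlhe41*. *Klf15* has 3, at 228 and 172 bases before the start and 1 that begins 3 bases before it and spans it.

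All 11 probes were well above background on all 6 arrays, so that each was measured in every heart. Levels are given as log2 of the intensity, relative to the 75th percentile of the same array, and 1 unit is a doubling. Of the 27590 probes that passed the filter on dim probes, 0.0145% passed an adjusted p of 0.05 in limma (two-sided, Benjamini-Hochberg adjustment over all of them), and none of the 11 did. At an unadjusted p of 0.05, which is the limit named in the methods, limma gave 5 of the 11, with 2 higher in HFD (*Bhlhe40*, 1 probe of *Bhlhe41*) and 3 lower (1 probe of *Dbp*, *Tef*, *Hlf*). The share over all probes tested was 11.9%, made up of 5.24% higher and 6.63% lower. The diets did not overlap for 3 of the 11 probes, against 19.0% of all probes. This was 1 probe higher in HFD and 2 lower, and 7.92% and 11.1% of all. The log2 fold change was above 0 for 5 of the 11, and for 48.0% of all. The median of the absolute log2 fold changes was 0.309 for the 11 probes and 0.113 for all, and no member reached a 2-fold difference, as 0.910% of all probes did. With 3 hearts against 3, an exact permutation test of a single probe cannot go below p = 0.10. The labels do not say how the hearts were spread over cages or days, and the p-values measure only the spread between these 6 samples.

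**Figure D1:**
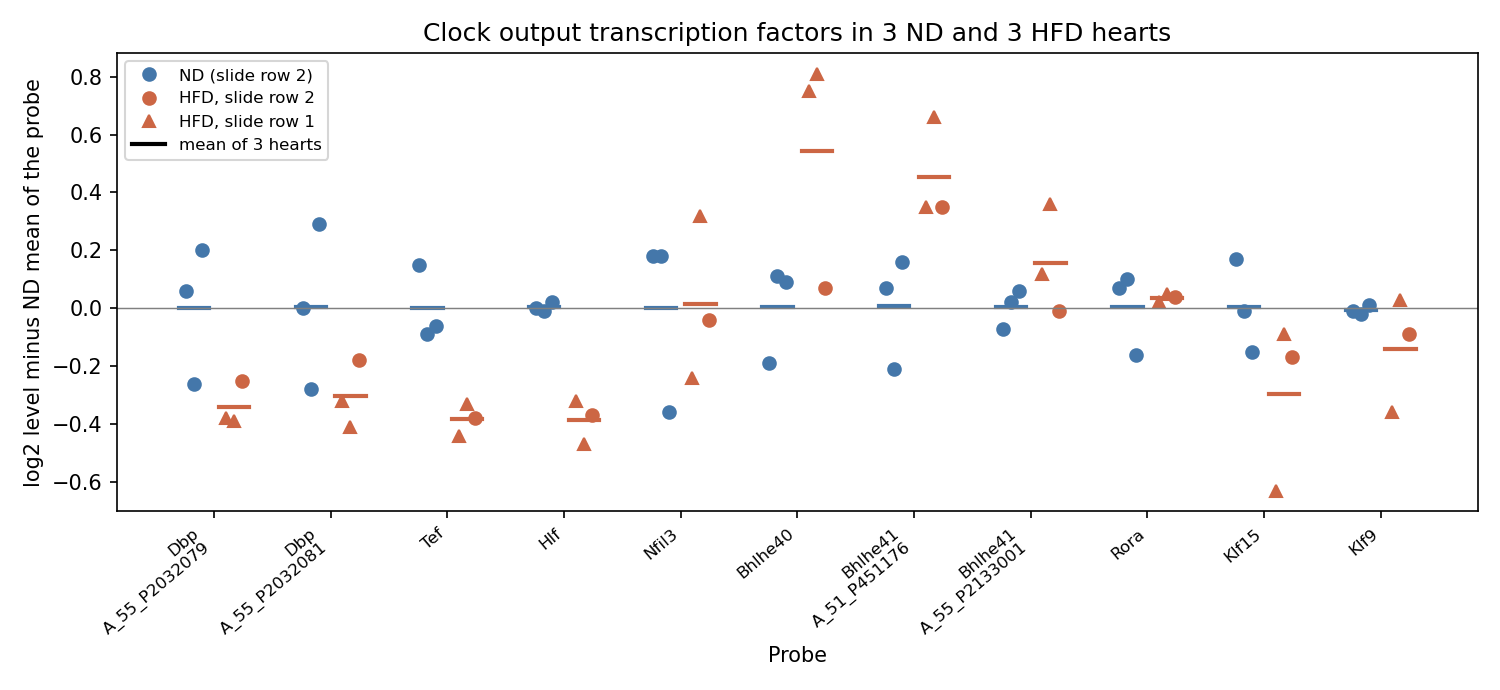
Each point is 1 heart, plotted as its log2 level minus the mean of the 3 ND hearts for the same probe, with short lines at the group means and triangles for the arrays on row 1 of the slide. All 3 HFD hearts sit below all ND hearts for *Tef* and *Hlf* and above them for the probe A_51_P451176 of *Bhlhe41*.

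All arrays shared 1 slide. HFD 1 and HFD 2 were on its row 1, and HFD 3 and the ND hearts on row 2. A fit with the slide row as a term therefore compares HFD 3 alone with the ND hearts. Such fits rest on 1 HFD heart and are given as differences only. The share of probes well above background was 49.2% to 53.0%, and no spot was saturated. Over the probes tested, hearts of the same diet correlated at 0.990 to 0.995 (Pearson's r, a description). Hearts of different diets correlated almost as closely, at 0.989 to 0.994. The spike-in slope of HFD 2 (0.896) was outside the range the software sets, and those of the other 5 arrays were inside it. Of 9 cardiomyocyte marker genes 0 passed an unadjusted p of 0.05 in limma, and their mean level was 8.22 to 8.49. Atrial markers varied between hearts of one diet, from 3.44 to 5.79 in ND and from 0.70 in HFD 2 to 6.18 in HFD 1.

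The 3 PAR activators were all lower in HFD-fed hearts, by a similar amount. Their mean levels came to between 76.2% and 80.7% of those in ND-fed hearts, and for *Tef* and *Hlf* every HFD heart lay below every ND heart. *Hlf* (A_55_P2009752, mm9 chr11:90200696-90200755, -) had levels of 1.41, 1.40 and 1.43 in the ND hearts. In the HFD hearts it had 1.09, 0.94 and 1.04. The highest HFD heart thus lay below the lowest ND heart, and the ND hearts spanned far less than the gap. The mean was 1.41 ± 0.02 (SD, n = 3) in ND and 1.02 ± 0.08 (n = 3) in HFD. The log2 fold change, HFD minus ND, was thus -0.39 (SE 0.07, 95% interval -0.56 to -0.22, adjusted p = 0.158, limma). On the linear scale the intensity was 1280 to 1300 in ND and 867 to 1120 in HFD, before scaling between arrays.

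*Tef* (A_55_P1979893, mm9 chr15:81657221-81657280, +) had levels of 5.69, 5.45 and 5.48 in ND. The HFD hearts had 5.10, 5.21 and 5.16, again without overlap. The mean was 5.54 ± 0.13 in ND and 5.16 ± 0.06 in HFD (SD, n = 3 each), which differ by -0.38 on the log2 scale (SE 0.09, 95% interval -0.60 to -0.16, adjusted p = 0.248, limma). With the slide row as a term left aside, both genes kept an unadjusted p under 0.05 in every alternative setting with a p. Between HFD 3 and the ND hearts, all on row 2 of the slide, the difference was -0.37 for *Hlf* and -0.38 for *Tef*, close to that over all hearts.

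For *Dbp*, known for one of the strongest daily rhythms of any transcript, the hearts overlapped. Its probe A_55_P2032079 (mm9 chr7:52965461-52965520, +) had levels of 5.13, 4.81 and 5.27 in ND and of 4.69, 4.68 and 4.82 in HFD. ND 2 and HFD 3 were all but equal, and the other hearts fell on their own sides. The log2 fold change was -0.34 (SE 0.13, 95% interval -0.65 to -0.02, adjusted p = 0.404, limma), from 5.07 ± 0.23 in ND to 4.73 ± 0.08 in HFD (SD, n = 3 each). Without ND 2 the log2 fold change was -0.46 (adjusted p = 0.405, limma). Without any one of the other 5 hearts the probe no longer reached an unadjusted p of 0.05, and its log2 fold change was as small as -0.24 without ND 3. The second probe, A_55_P2032081 (mm9 chr7:52965322-52965381, +), gave 4.80, 4.52 and 5.09 in ND and 4.48, 4.39 and 4.62 in HFD. It ranked the ND hearts in the same order, and its log2 fold change was -0.31 (SE 0.15, adjusted p = 0.504, limma). This second probe reached an unadjusted p under 0.05 without ND 2 and with the replicate number as a block (limma). Within row 2 the probes gave -0.25 and -0.19.

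Markers of red blood cells were also lower in HFD-fed hearts. All 10 of the erythroid marker genes tested (of 12 on the array) were lower, 7 of them at an unadjusted p under 0.05 (limma). Of all probes, 6.63% were lower at that p. The mean level of these markers was 4.02 to 4.55 in ND and 3.40 to 3.73 in HFD. Skeletal muscle markers had lower means in 5 of 5 tested of 9, with a mean level of 0.74 to 1.1 in ND and 0.48 to 0.71 in HFD. Of these 5 genes, 2 had an unadjusted p under 0.05 (limma), against 6.63% of all probes lower at that p. For 1 the diets did not overlap, against 11.1% of all probes lower without overlap. The brightest, *Atp2a1*, differed by -0.01, and the other genes tested by -0.41 to -0.51. The part of either in the levels of *Dbp*, *Tef* and *Hlf* was not tested.

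*Nfil3*, the repressor that shares the D-box with these activators, showed no difference between the mean levels beyond the spread. The ND hearts had 2.71, 2.71 and 2.17 and the HFD hearts 2.29, 2.85 and 2.49 (A_55_P2035320, mm9 chr13:53062578-53062637, -). The lowest heart of each diet lay over 0.5 log2 units below its highest. The log2 fold change of 0.01 (SE 0.21, adjusted p = 0.992, limma) has a 95% interval of -0.50 to 0.51, which would hold a difference as large as that of *Hlf* in either direction.

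The E-box repressors had higher mean levels in HFD-fed hearts, each with a limit. *Bhlhe40* (A_51_P272553, mm9 chr6:108616309-108616368, +) had levels of 0.93, 1.23 and 1.21 in ND and of 1.87, 1.93 and 1.19 in HFD. HFD 1 and HFD 2 were high and HFD 3 lay among the ND hearts. The log2 fold change was 0.54 (SE 0.22, 95% interval 0.01 to 1.07, adjusted p = 0.416, limma), from 1.12 ± 0.17 to 1.66 ± 0.41 (SD, n = 3 each). The high hearts are those on row 1 of the slide. With the row as a term, which leaves HFD 3 alone against the ND hearts, the log2 fold change was 0.07. Without HFD 3 it was 0.78 (adjusted p = 0.216, limma). With the slide row left aside, *Bhlhe40* kept an unadjusted p under 0.05 in 7 alternative settings and lost it in more. Without any one of the other 5 hearts the gene no longer reached an unadjusted p of 0.05. Row and heart cannot be told apart for HFD 1 and HFD 2.

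Immediate early genes, which cells switch on within minutes of a stimulus, had the same 2 hearts on top. Of 15 tested genes (of 19 on the array) all 15 were higher in HFD, as were 48.0% of all probes. Of these genes 9 had an unadjusted p under 0.05 (limma) and none an adjusted one. Of all probes, 5.24% were higher at that unadjusted p. Their mean level was 0.57, 0.73 and 0.10 in ND and 1.82, 1.87 and 0.98 in HFD. Their median log2 fold change was 0.91, against -0.0081 for all probes, and 0.27 with the slide row as a term. Their part in the level of *Bhlhe40* was not tested.

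**Figure D2:**
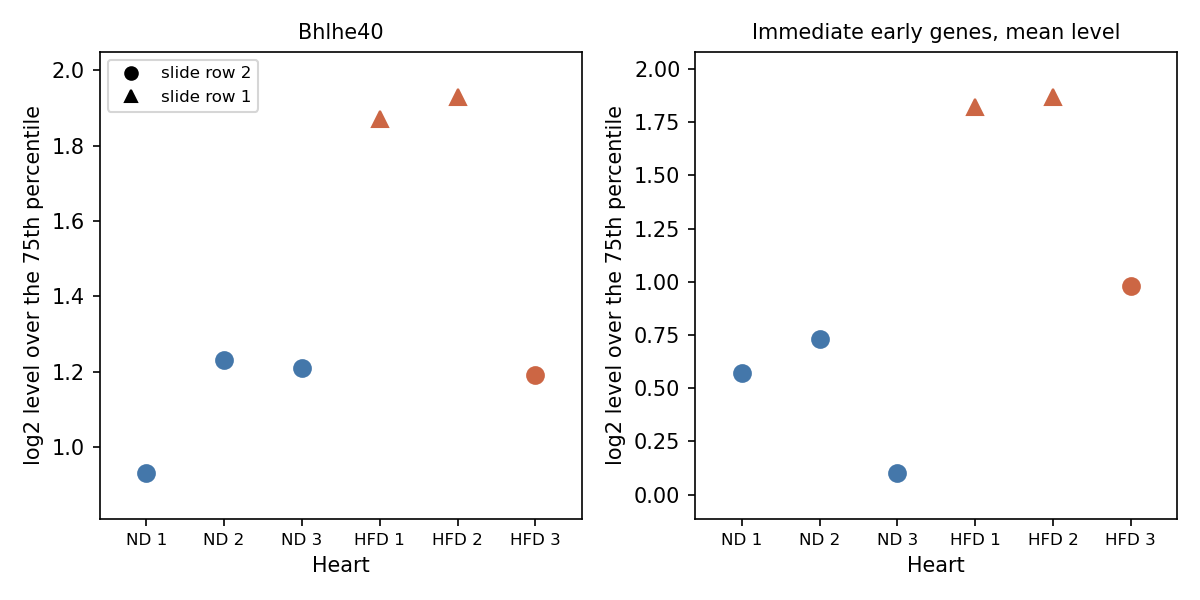
The log2 level of *Bhlhe40* (left) and the mean log2 level of 15 immediate early genes (right) are plotted for each heart, in blue for ND and orange for HFD, with triangles for slide row 1. HFD 1 and HFD 2 are the 2 highest hearts in both panels, and HFD 3, at 1.19 for *Bhlhe40*, is level with the ND hearts there.

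*Bhlhe41* was higher in all 3 HFD hearts by its brighter probe. A_51_P451176 (mm9 chr6:145811275-145811334, -) had levels of -2.89, -3.17 and -2.80 in ND and of -2.61, -2.30 and -2.61 in HFD, without overlap. On the log2 scale the difference was 0.45 (SE 0.14, 95% interval 0.11 to 0.78, adjusted p = 0.319, limma), from -2.96 ± 0.19 to -2.51 ± 0.18 (SD, n = 3 each). This spot was dim, at an intensity of 53.5 to 68.3 in ND and 84.5 to 91.8 in HFD, and another background correction (normexp) gave a smaller difference of 0.20 (adjusted p = 0.484, limma). Within row 2 the difference was 0.34. An unadjusted p under 0.05 (limma) was lost with normexp and with the replicate number as a block.

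The second probe of *Bhlhe41*, A_55_P2133001 (mm9 chr6:145812652-145812711, -), lay nearer to background. It had levels of -3.98, -3.89 and -3.85 in ND and -3.79, -3.55 and -3.92 in HFD. HFD 3 was inside the range of the ND hearts, and the log2 fold change was 0.15 (SE 0.11, adjusted p = 0.650, limma). The probes of the gene thus disagree on whether the diets overlap, and their average gave 0.30 (adjusted p = 0.384, limma).

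*Rora*, the activator of *Arntl*, stayed within its spread. The ND hearts had 0.95, 0.98 and 0.72 and the HFD hearts 0.90, 0.93 and 0.92 (A_55_P2078123, mm9 chr9:69226774-69226833, +). The HFD hearts were all but equal and lay inside the ND range. The difference of the means was 0.03 (SE 0.09, adjusted p = 0.913, limma), and its 95% interval of -0.18 to 0.25 leaves out differences of the size seen for *Tef* and *Hlf*.

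The Krüppel-like factors had lower means in HFD that did not pass the test. *Klf15* (A_55_P2022049, mm9 chr6:90425144-90425203, +) had levels of 2.35, 2.17 and 2.03 in ND and 1.55, 2.09 and 2.01 in HFD. HFD 1 stood low, while HFD 2 was inside the ND range and HFD 3 just under it. The means differed by -0.30 on the log2 scale (SE 0.17, 95% interval -0.71 to 0.11, adjusted p = 0.554, limma), with -0.13 when HFD 1 was left out and -0.17 within row 2. *Klf9* (A_65_P19780, mm9 chr19:23240410-23240469, +) had 4.46, 4.45 and 4.48 in ND and 4.11, 4.50 and 4.38 in HFD. HFD 1 was again the lowest heart, and the log2 fold change was -0.13 (SE 0.11, 95% interval -0.40 to 0.14, adjusted p = 0.694, limma). It was -0.02 without HFD 1 and -0.22 without HFD 2.

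**Figure D3:**
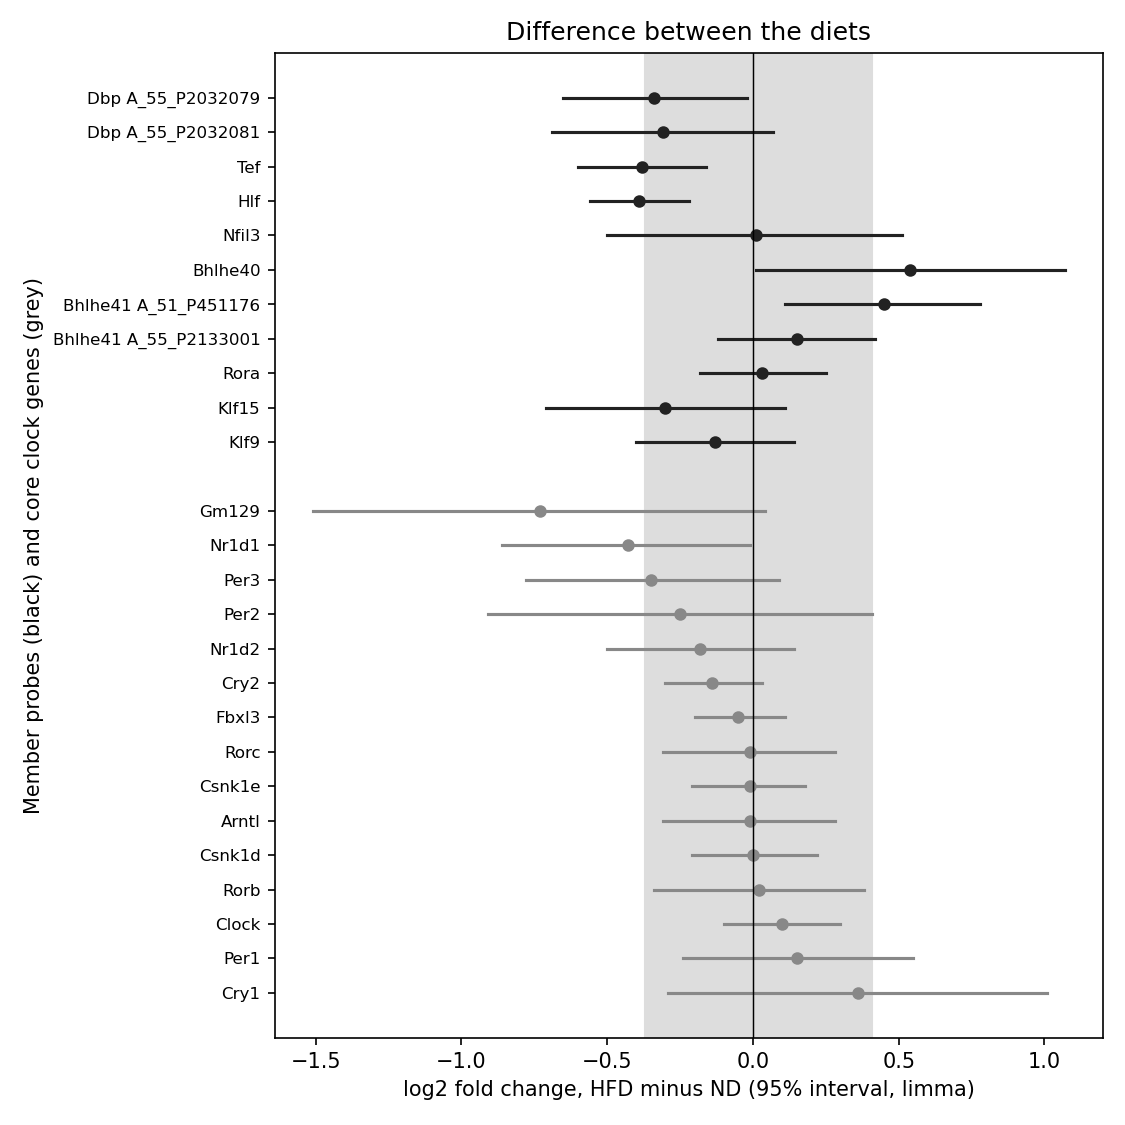
Points are log2 fold changes, HFD minus ND, of the 11 member probes (black) and of 15 core clock genes (grey), lines their 95% intervals from limma, and the grey band the range from the 5th to the 95th percentile of all probes tested (-0.37 to 0.41). *Tef*, *Hlf*, *Bhlhe40* and 1 probe of *Bhlhe41* lie outside the band, and most core clock genes lie inside it.

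Most genes listed as known targets of *Klf15* were lower in every HFD-fed heart. All 6 had lower means, 4 of them at an unadjusted p under 0.05 (limma) and without overlap between the diets. Of all probes, 6.63% were lower at that p and 11.1% were lower without overlap. The median log2 fold change of the 6 genes was -0.38, against -0.0081 for all probes. None of the 6 passed the adjustment. The list was chosen with earlier results of these data known, so it is a description only. *Prodh*, which starts the breakdown of proline, had levels of 3.30, 3.28 and 3.29 in ND and 2.42, 2.31 and 2.58 in HFD. Its log2 fold change was -0.85 (SE 0.09, adjusted p = 0.0807, limma). *Gpt*, an alanine transaminase, had 4.07, 4.17 and 4.00 against 3.8, 3.45 and 3.36 (-0.55, SE 0.13, adjusted p = 0.252, limma). The breakdown of branched amino acids starts with *Bcat2*, which had 4.06, 4.00 and 3.97 against 3.63, 3.69 and 3.59 (-0.37, SE 0.07, adjusted p = 0.163, limma). For each of these enzymes the 3 HFD hearts lay below the 3 ND hearts.

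*Slc2a4*, the insulin-responsive glucose transporter GLUT4, had levels of 7.33, 7.34 and 7.37 in ND and 6.94, 7.01 and 6.94 in HFD. Its log2 fold change was -0.38 (SE 0.06, adjusted p = 0.145, limma). *Kcnip2* had 1.19, 1.35 and 1.34 in ND and 0.63, 1.18 and 1.30 in HFD, so that HFD 1 was lowest as for *Klf15* and the groups overlapped (-0.26, SE 0.18, adjusted p = 0.643, limma). *Acss1*, a mitochondrial acetyl-CoA synthetase, differed by -0.05 (SE 0.11, adjusted p = 0.889, limma). Among the 4 genes without overlap, HFD 1 was level with HFD 3 as lowest for *Slc2a4*, and was not the lowest heart for *Prodh*, *Gpt* and *Bcat2*. The part of *Klf15* in these levels was not tested. The difference between HFD 3 and the ND hearts within row 2 was -0.71 for *Prodh*, -0.72 for *Gpt*, -0.42 for *Bcat2* and -0.41 for *Slc2a4*. The erythroid and skeletal muscle markers described above also had lower means in HFD, and their part in these genes was not tested.

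**Figure D4:**
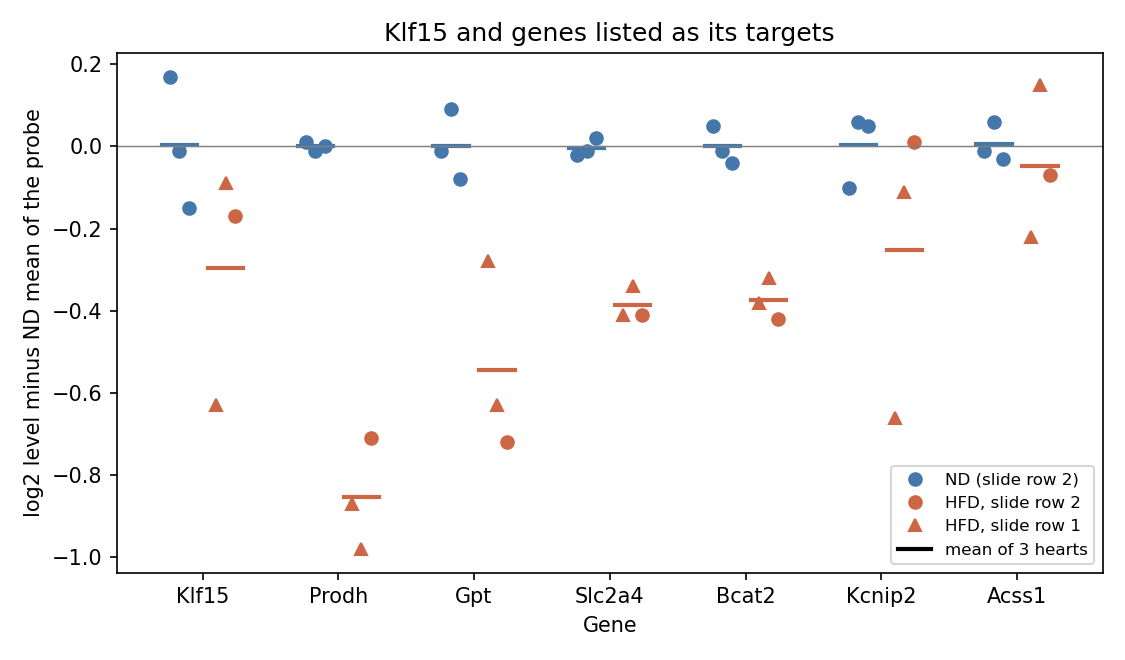
Each point is 1 heart, plotted as its log2 level minus the ND mean of the same probe, for *Klf15* and the 6 genes listed as its targets, with lines at the group means. The HFD hearts lie below all ND hearts for *Prodh*, *Gpt*, *Slc2a4* and *Bcat2*, and the groups overlap for *Klf15*, *Kcnip2* and *Acss1*.

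For most core clock genes no difference beyond the spread was found, at these hearts' unknown clock time. Of 15 genes tested (1 probe each, the brightest), 5 were higher and 10 lower in HFD. Of all probes, 48.0% were higher. The median log2 fold change of the 15 was -0.01, and that of all probes -0.0081. In limma 1 gene, lower in HFD, had an unadjusted p under 0.05 and none an adjusted one. Of all probes, 6.63% were lower at that unadjusted p. The gene was *Nr1d1*, the repressor REV-ERBα, with 1.63, 1.66 and 2.14 in ND and 1.24, 1.29 and 1.60 in HFD. Its groups did not overlap and differed by -0.43 on the log2 scale (SE 0.17, adjusted p = 0.413, limma), which was -0.21 with the slide row as a term. *Arntl* had 1.23, 1.45 and 1.46 in ND hearts and 1.58, 1.27 and 1.25 in HFD hearts. Its log2 fold change was -0.01 (SE 0.12, adjusted p = 0.980, limma). The largest difference in either direction was that of *Gm129* (-0.73, SE 0.32, adjusted p = 0.447, limma), chosen after its values were seen. *Cry2*, likewise named afterwards, had a second probe, A_55_P1953708, with a larger difference (-0.47, adjusted p = 0.287, limma) than the brighter one (-0.14, adjusted p = 0.494). Neither probe overlapped between the diets, and the second reached an unadjusted p under 0.05. With the probes of each gene averaged, 2 core clock genes did. By the brightest probe of each gene, 3 did with an intensity trend and robust variances, all lower in HFD. With array weights, with the replicate number as a block and without ND 2, 2 did, also lower. Without HFD 1, with no filter on dim probes and with the percentile taken over averaged probes, 0 did.

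Of 11 genes known to follow the clock in metabolic tissues, 5 were higher and 6 lower, with a median of -0.01. Of all probes, 48.0% were higher. At an unadjusted p under 0.05 (limma) 1 was higher and 2 lower, against 5.24% and 6.63% of all probes. An unadjusted p under 0.05 (limma) was reached by *Ucp3*, a mitochondrial carrier, with 0.50 more on the log2 scale (SE 0.18, adjusted p = 0.383), by *Usp2*, a ubiquitin protease, with -0.32 (SE 0.10, adjusted p = 0.323) and by *Dgat2*, an enzyme of triglyceride synthesis, with -0.25 (SE 0.08, adjusted p = 0.337). *Usp2* had 4.06, 4.17 and 4.01 in ND and 3.68, 3.67 and 3.93 in HFD. Its groups did not overlap, but with the slide row as a term, from HFD 3 alone, its difference was -0.15. With the slide row left aside, *Usp2* kept an unadjusted p under 0.05 in 15 alternative settings and *Dgat2* in 13, and each lost it in others. The groups of *Ucp3* overlapped. Averaged over its probes *Ucp3* gave 0.33 (adjusted p = 0.654, limma) and lost the unadjusted p under 0.05. Without ND 2, 0 of the 11 genes reached it.

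Glucocorticoids induce *Klf9* and *Klf15*, and 11 other genes that respond to them were listed, some of which also follow the clock. In HFD 8 were higher and 3 lower, and of all probes 48.0% were higher. Their median was 0.16, which ranged from 0.04 without ND 3 to 0.32 without ND 2. At an unadjusted p under 0.05 (limma) 2 were higher and 1 lower, against 5.24% and 6.63% of all probes. Those at an unadjusted p under 0.05 in limma were *Errfi1*, a brake on the EGF receptor (1.49, SE 0.42, adjusted p = 0.287), the phosphatase gene *Dusp1* (0.48, SE 0.12, adjusted p = 0.252) and the zinc finger gene *Zbtb16* (-0.92, SE 0.33, adjusted p = 0.368). *Errfi1* had 5.23 and 5.42 in HFD 1 and HFD 2 and 3.88 in HFD 3, against 3.05 to 3.54 in ND. *Zbtb16* had 3.22 in HFD 1, the heart that was also lowest for *Klf9* and *Klf15*, and 4.45 and 4.33 in HFD 2 and HFD 3, against 4.86 to 4.97 in ND. With the slide row as a term, which rests on HFD 3 alone, the median of the 11 genes was 0.20.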

How the data were processed

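Per the file headers, the authors extracted the arrays with Agilent Feature Extraction 10.7.1.1, which subtracted background and a spatial trend, and the deposited intensities had not been normalized between arrays. The authors also deposited a log2 table of the same arrays. It followed a quantile normalization of the intensities (median difference of at most 0.00372), and was used as an alternative. Probe positions are on mm9, and the place of the probes within exons was not analysed here.

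Control and outlier spots (127 to 190 an array) were left out. The log2 intensity minus the array's 75th percentile was compared, HFD against ND, in limma 3.58.1 (lmFit, eBayes; R 4.3.3) over the probes that the software rated well above background in all hearts of a diet. Alternatives changed the normalization, background correction, filter, test, weights, blocks and hearts. The code was tested on simulated data. Figures were drawn with matplotlib 3.10.9.

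Members and lists were chosen with earlier results of these data known. Every member probe is named. Of the other lists, at most 5 genes a list at an unadjusted p under 0.05 are named, by size of change, and each gene is represented by its brightest tested probe. The *Klf15* list is described whole. The marker lists of adipocytes, fibroblasts, endothelium, macrophages and nerve had 1 gene each at an unadjusted p under 0.05 (limma), which 11.9% of all probes reached. These counts do not show differences between hearts of one diet. The mean level of the adipocyte markers was -2.41 in HFD 2 and -0.54 to 0.80 in the other hearts. Of 6 macrophage genes, 3 were lower in HFD without overlap between the diets, against 11.1% of all probes.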

Additional observations from a re-analysis of the deposited data

How the results depend on the processing

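The number of member probes at an adjusted p under 0.05 was 0 in every alternative setting other than the slide row as a term. At an unadjusted p under 0.05 it was 3 with quantile normalization, with no filter on dim probes and with array weights. It was also 3 with the methods' t-test and with the log2 table of the authors, and 3 to 5 with 1 heart left out. The slide row as a term leaves 1 HFD heart, so no count is given for it. Member probes without overlap numbered 3 to 7 with 1 heart left out, the most without HFD 3. Among the genes of the other lists, the number past the adjustment rose from 0 to 1 with normexp (*Prodh*, adjusted p = 0.0282) and to 3 with an intensity trend and robust variances. The sign turned for probes near 0, in these settings. *Bhlhe41* A_55_P2133001 gave -0.01 with normexp and -0.02 with the slide row as a term. *Nfil3* gave -0.08 with array weights, -0.05 with the slide row as a term, -0.17 without ND 3 and -0.14 without HFD 2. With 1 heart left out, *Nfil3* ranged from -0.17 to 0.13 and *Rora* from -0.05 (without ND 3) to 0.08. Over all probes, 0 to 81 passed the adjustment against 4, the most with the intensity trend and robust variances. The causes were not tested.

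The labels do not say whether the replicate numbers pair the samples. Deviations of same-numbered hearts correlated at -0.154, 0.147 and 0.190. Hearts of different numbers were not compared in this way, so these values cannot decide it. With the replicate number as a block, 4 member probes had an unadjusted p under 0.05 and 0 an adjusted one (limma). They were those of *Tef* and *Hlf* and both of *Dbp*, all lower in HFD. Signal over background limits both probes of *Bhlhe41*, and 3 hearts a diet limit every mean. The alternative of a percentile taken over averaged probes was chosen after seeing the data.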

Other observations

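The genes whose pattern over the 6 hearts was most like that of the brighter *Dbp* probe were sought among 25923 probes above background on all arrays, by the root mean square difference of levels centred on each probe's own mean. The other *Dbp* probe came first, at 0.05. Of the 5 probes of other genes that came next, AF251705 and *Elavl4*, an RNA-binding protein gene known from neurons, had 0.06, and *Pi16*, *Brd8* and a probe for a long non-coding RNA (A_30_P01031204) had 0.07. *Hlf* had 0.14 and *Tef* 0.15, at ranks 405 and 494, and the other members lay between 0.20 (*Klf9*) and 0.55 (*Bhlhe40*). The likeness rests on 6 values a probe and is given as a description.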
